A study of Mus musculus with 14 samples.

Results

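The 311 SOX10 ChIP regions described here lie on mouse chromosome 11 between positions 3200000 and 111000000, a segment of 107.8 Mb that takes in 88.6% of the chromosome. They were chosen by position from the deposited list of 7929 regions, as those that start at or above the lower bound and end at or below the upper one. They make up 3.92% of the list and 55.3% of the 562 regions of chromosome 11. The other regions of the chromosome are 8 regions before the lower bound and 243 regions beyond the upper bound. Both bounds were set with the densities and signals of this same list in view. Those values are therefore given as a description, with no test.

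The study profiled mammary cell states and a mammary tumor model by ChIPmentation, chromatin immunoprecipitation in which a transposase inserts the sequencing adapters while chromatin is bound to the beads. The list comes from PY230 cells, a mouse mammary tumor line transplanted into syngeneic mice of strain C57BL6J and recovered from adult mammary tumors. Its 2 SOX10 ChIP samples carried SOX10 with an AVI tag and BirA, the enzyme that adds biotin to that tag, so that SOX10 was pulled down on streptavidin beads. The 1 control sample went through the same beads and SDS washes, and the labels do not state which of these constructs, if any, its cells carried. The labels describe the tumor material both as bulk tumors and as cells isolated by flow cytometry. The regions thus report a tagged protein in cells of 1 line, and 1 list stands for both ChIP samples, so the spread between samples cannot be given.

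SOX10 is a transcription factor of the SoxE group. Its HMG box contacts the minor groove of DNA and bends it, and SoxE factors are known to act at distal enhancers as well as promoters. SOX10 is best known for neural crest, Schwann cells, oligodendrocytes and melanocytes, and is also expressed in mammary stem and progenitor cells. Mouse chromosome 11 is known for its many genes, among them the Hoxb cluster, the type I keratin genes and Stat5a and Stat5b, which act in lactation. In the GRCm38.p6 gene table it held 1609 protein-coding genes, the third most of 20 chromosomes, and 13.2 per Mb, the second highest density. The list is in build mm9, so no region was assigned to any of these genes and no sequence was read.

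The SOX10 regions of the segment were about as dense as in the list as a whole. They numbered 2.88 per Mb (95% exact Poisson interval 2.57 to 3.22, counting error only), against 3.03 per Mb in the whole list, a ratio of 0.951. Chromosome lengths were counted from the first base to the end of the last region. They thus include the chromosome starts, which the segment leaves out. Of the other 19 chromosomes, each taken whole, 7 were denser and 12 sparser than the segment. Chromosome 11 taken whole held 4.62 per Mb. The 10 sparse autosomes (2, 3, 5, 6, 7, 8, 9, 14, 16 and 17, a set chosen from these same densities) held 2.38 per Mb (2.30 to 2.46). Chromosome 11 beyond the upper bound held 22.8 per Mb (20.0 to 25.9), 7.91 times the density of the segment. The regions of the segment covered 211 kb, or 0.196% of its length, where the distal part was covered to 2.24%.

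Regions were unevenly spread along the segment. In the 21 whole windows of 5 Mb the count ran from 2 to 30, with a median of 16 (quartiles 8 and 19). The partial window from 3.2 to 5 Mb held 10 regions (4.8 to 18.4), or 5.56 per Mb, against 6.0 per Mb in the fullest whole window. In the proximal part, full and sparse windows were mixed. The windows starting at 5, 20, 30 and 50 Mb held 16, 19, 20 and 20 regions. Fewer lay in the other whole windows of this part, with 4 and 7 regions in those from 10 to 20 Mb and 2 from 25 to 30 Mb. The windows from 35 to 50 Mb held 8, 5 and 8, and that from 55 to 60 Mb held 5.

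From 60 to 80 Mb the filling was steadier. The 3 windows from 60 to 75 Mb held 18, 18 and 19 regions, and the window from 75 to 80 Mb held 30 (20.2 to 42.8), the most in the segment. The windows from 80 to 85 Mb and from 90 to 95 Mb held 9 and 8, with 16 in the window between. A second dense stretch followed, with 23 regions from 95 to 100 Mb and 27 from 100 to 105 Mb. With windows moved by 2.5 Mb, the fullest window was that from 97.5 to 102.5 Mb, with 38 regions. Which of these 2 stretches ranks first thus depends on where the windows start. The last whole window, from 105 to 110 Mb, held 17 regions, and the remaining stretch up to the upper bound held 2.

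**Figure D1:**
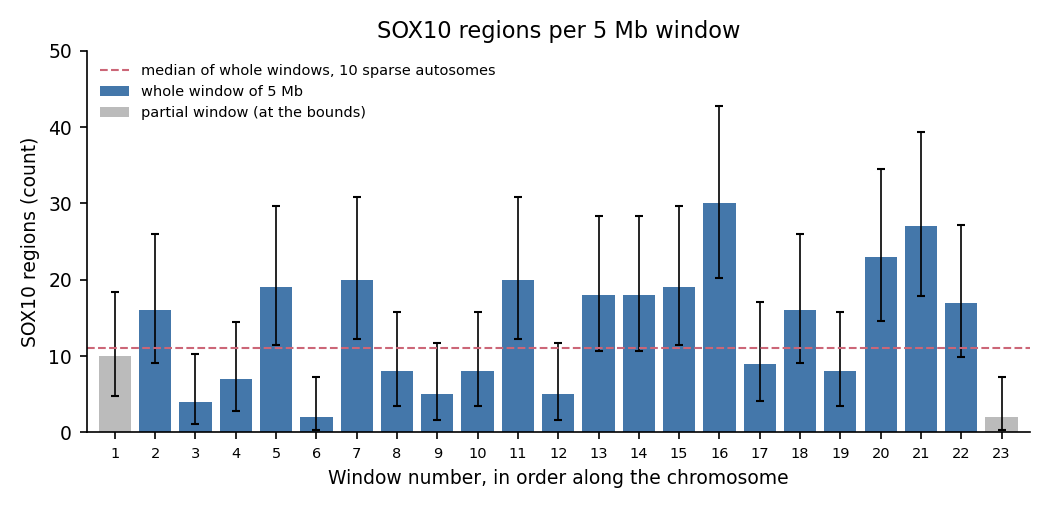
SOX10 regions (count, y axis) in each 5 Mb window of the chromosome 11 segment, numbered in order along the chromosome (x axis), with exact Poisson intervals at 95% as error bars. Grey bars are the partial windows at the bounds, and the dashed line is the median of 11 regions in whole windows of the 10 sparse autosomes. Window 6 holds 2 regions, and windows 16 and 21 hold 30 and 27.

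Beyond its midpoint at 57.1 Mb, the segment held 192 regions or 3.56 per Mb (3.08 to 4.10). Before it lay 119 or 2.21 per Mb (1.83 to 2.64), so the ratio of the densities was 1.61. Signal did not follow this order. The median was 0.0253 beyond the midpoint (quartiles 0.0179 and 0.0346) and 0.0275 before it (0.0183 and 0.0353). Median widths were 641 bp and 653 bp. This division was made after the windows had been seen.

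The window counts of the segment overlapped widely with those of other autosomes. In 256 whole windows of the 10 sparse autosomes the median count was 11 (quartiles 6 and 17, highest 39). In 438 whole windows of the 18 autosomes other than chromosome 11 it was 13 (quartiles 7 and 21, highest 69). Windows with 15 or more regions made up 57.1% in the segment, 34.8% on the sparse autosomes and 45.9% on the 18 autosomes. Those with under 10 made up 42.9%, 41.0% and 35.6%, so the order of the 3 depends on the cut. No whole window of the segment was empty, where 21 of the 438 were. The segment had only 21 whole windows, too few to read this as a difference. The variance of the counts was 4.44 times their mean in the segment, 4.88 times on the sparse autosomes and 10.3 times on the 18 autosomes.

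Gaps over 1 Mb between neighbouring regions numbered 24 and added up to 53.0 Mb, or 49.1% of the segment. They were 7.74% of its gaps, close to the 7.79% of the whole list and below the 10.8% of the sparse autosomes. The longest ran for 5.12 Mb from 24208812 to 29328274. Next came gaps of 4.46 Mb (12135290 to 16596441), 4.43 Mb (38542787 to 42970966), 3.98 Mb (54957279 to 58937027) and 3.84 Mb (79543618 to 83385569). Genes and sequence of these stretches were not analysed here.

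Neighbouring regions were a median of 109.7 kb apart (quartiles 20.9 and 378.7), against 61.3 kb in the whole list and 100.7 kb on the sparse autosomes. Of the 310 neighbouring pairs, 47 (15.2%) were less than 10 kb apart and 14 (4.52%) less than 1 kb. The shares under 10 kb were 22.7% in the whole list, 18.1% on the sparse autosomes and 45.0% in distal chromosome 11. Once joined across gaps under 10 kb, the regions formed 39 runs and left 225 regions alone, 264 units in all. The runs took in 86 regions, 27.7% of the segment (exact Clopper-Pearson interval 22.8 to 33.0). The share in runs was 31.8% on the sparse autosomes (30.2 to 33.4), 38.1% in the whole list and 63.0% in the distal part (56.6 to 69.0). On 17 of the other 19 chromosomes a larger share of regions lay in runs. Those were taken whole, with their own dense stretches, and chromosome 11 taken whole had 43.6%.

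Most runs were pairs. There were 34 runs of 2 regions, 3 of 3, 1 of 4 and 1 of 5. Distal chromosome 11 had 8 runs of 5 or more with 59 of its 243 regions, where the segment had a single run of that size with 5 of its 311. The pairs spanned a median of 4.37 kb (1.57 to 10.9 kb). Within a pair the stronger region had a median of 1.56 times the signal of the weaker (quartiles 1.36 and 2.21), in the 33 pairs without a signal of 0. In 13 of these pairs the ratio exceeded 2. The ratio cannot fall below 1 by construction and was not compared with that of regions that are not neighbours. Over all 311 regions the third quartile of signal was 1.93 times the first. The closest neighbours in the segment, chr11:100027989-100029094 and chr11:100029159-100030617, were separated by 64 bp and had signals of 0.0210 and 0.0280. Whether neighbours that close are separate sites cannot be read from the list.

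The run of 5 lay at chr11:45629799-45645525 and covered 31.3% of its 15.7 kb. Its first pair of regions, with signals of 0.0384 and 0.0537, stood 93 bp apart. Signals of 0.0393, 0.0280 and 0.0285 followed along the run. All 5 were therefore close to or above the list median of 0.0280. The run of 4 at chr11:35733265-35741130 was less even. Its signals were 0.0300, 0.0435, 0.0352 and 0.00883, so that 3 regions lay above the list median and the last far below it.

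The runs of 3 were weaker. At chr11:20758817-20763711 the signals were 0.0295, 0.0157 and 0.00328. At chr11:34072809-34084789 they were 0.0292, 0.0231 and 0.00726. At chr11:86815655-86821204 they were 0.0186, 0.00968 and 0.0254. In each of the first 2 of these runs 1 region reached the list median, and in the last none did. The signal of regions in runs had its median at 0.0258 (quartiles 0.0174 and 0.0343), that of single regions at 0.0272 (0.0183 and 0.0356). Regions in runs were wider, with a median of 732 bp (quartiles 536 and 941) against 602 bp (411 and 809). These values describe the list and were not tested.

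The signal of the segment was moderate and close to that of other autosomes. The unit of the deposited signal is not stated. The median was 0.0262 (exact binomial interval 0.0244 to 0.0278, quartiles 0.0182 and 0.0351), against 0.0280 in the whole list and 0.0260 on the sparse autosomes. Of the other 19 chromosomes, each taken whole, 10 had a higher median and 9 a lower one. Chromosome 11 taken whole had a median of 0.0343. Distal chromosome 11 had a median of 0.0462 (0.0437 to 0.0485), 1.76 times that of the segment. Regions above the list median made up 42.8% of the segment and 86.8% of the distal part. The 10% of the list with the highest signal held 15 regions of the segment (4.82%, exact interval 2.72 to 7.83) and 109 of the distal part (44.9%).

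**Figure D2:**
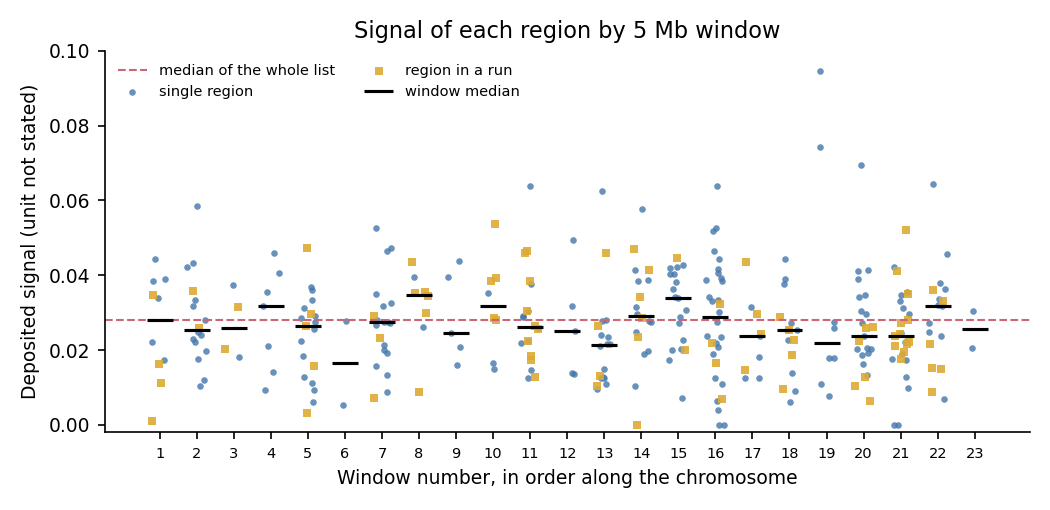
Deposited signal (y axis, unit not stated) of each of the 311 SOX10 regions by 5 Mb window in order along the chromosome (x axis), with single regions as circles, regions in runs as squares and window medians as black lines. The dashed line is the list median of 0.0280. Medians in the 12 whole windows with 10 or more regions run from 0.0213 to 0.0339, and the 9 highest points are all single regions.

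Over all 21 whole windows, medians of signal varied less than the counts, from 0.0166 to 0.0348 against 2 to 30 regions. In the 12 whole windows with 10 or more regions the medians ran from 0.0213 (60 to 65 Mb) to 0.0339 (70 to 75 Mb). Counts in these 12 ran from 16 to 30. The fullest window had a median of 0.0288, and the window from 100 to 105 Mb one of 0.0238. Across the 21 whole windows, Spearman's rho was 0.111 for count against median signal and 0.097 for count against median width. Windows share 1 library pool and several hold under 10 regions, so these are descriptions.

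The strongest regions of the segment were spread along it. The 10 with the highest signal had values of 0.0537 to 0.0947 and lay in 9 windows. Of the 10, 9 lay outside runs, as did 72.3% of all regions of the segment, and the other was the second region of the run of 5. The nearest neighbour of these 10 was a median of 52.3 kb away (0.093 to 1167.3 kb), against 37.9 kb over all 311. The highest was chr11:90216491-90217023, a region of 533 bp with a signal of 0.0947. It was 3.38 times the list median and ranked 82 in the list, and no region lay within 1 Mb before it. The second, chr11:94093693-94093882 with 0.0743, was only 190 bp wide. Next came chr11:97908819-97909935 with 0.0694 over 1117 bp. None of the 311 reached the top 1% of the list, above 0.0972 (exact interval 0 to 1.18%). None of the 243 distal regions did either (0 to 1.51%), while 7 of the 8 regions before the lower bound did. Both intervals take in the 1.01% of the whole list, so neither 0 is read as a difference. The 0 of the segment also depends in part on where the lower bound was set.

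The other members of this group of 10 had signals of 0.0643 (chr11:109615402-109616466), 0.0639 (chr11:77110822-77111113), 0.0638 (chr11:51428812-51429144) and 0.0624 (chr11:62904313-62904850). Below these stood chr11:5061715-5062336 with 0.0585 and chr11:69519888-69520740 with 0.0576. Beyond the midpoint of the segment lay 7 of the 10, near the 61.7% of all its regions. Their order by signal is not their order by signal times width, since some of the 10 are narrow.

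The reads that enter the signal of a region can be approximated. Signal times width came in whole multiples of 0.0479 in 99.9% of the 7282 regions of the list that are under 1500 bp and above 0, within 0.05 of a multiple. Multiples of 54 such steps were common (39.2%), as if each read added 54 bases. Read equivalents are signal times width in units of 54 steps. They are a reading of the values, may be net of the control and were not compared with background coverage. In the segment 40.6% of the 303 regions under 1500 bp and above 0 came out at whole read equivalents.

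Most regions of the segment came to few read equivalents. The 5 regions at 0 were listed all the same, so this measure is not the count of reads that led to a call. The median was 6.30 read equivalents (quartiles 3.45 and 9.86), against 7.50 in the whole list, 6.50 on the sparse autosomes and 15 in distal chromosome 11. Under 5 read equivalents lay 112 of the 311 regions (36.0%, exact interval 30.7 to 41.6), and under 10 lay 236 (75.9%). Only 8 reached 20 or more, where 77 of the 243 distal regions did. Exactly 1 read equivalent lay behind 9 regions and exactly 2 behind 14. The region with the most, chr11:97908819-97909935, had 30.0. The strongest region by signal had 19.5, and the second by signal only 5.46. If read equivalents follow the reads, ranks by signal are loose for narrow regions.

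A signal of 0 was listed for 5 regions of the segment (1.61%, exact interval 0.524 to 3.71), named after their values were seen. They were chr11:68153899-68154400, chr11:76576912-76577251, chr11:76960363-76960804, chr11:102188653-102188975 and chr11:102977431-102977583. Their widths ran from 153 to 502 bp. The windows from 75 to 80 Mb and from 100 to 105 Mb, the fullest whole windows of the segment, held 2 of them each. In the whole list 0.820% of regions had a signal of 0 and in the distal part 0 of 243, which allows a share of up to 1.23% (3 counts of the total) or, by the exact interval used for the other shares, 1.51%.

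The median width in the segment was slightly below that of the list, and wide regions were few. The median width was 642 bp (exact binomial interval 601 to 686, quartiles 434 and 842.5), against 683 bp in the whole list, 656 bp on the sparse autosomes and 827 bp in the distal part (723 to 885). The interval of the segment takes in the medians of the whole list and of the sparse autosomes. On 17 of the other 19 chromosomes, each taken whole, the median was wider, though many of these medians lay within that interval. Chromosome 11 taken whole had 692.5 bp. Widths of 1500 bp or more were reached by 3 of the 311 regions (0.965%, exact interval 0.199 to 2.79). The share was 4.28% on the sparse autosomes (3.61 to 5.03), 7.34% in the whole list and 15.2% in the distal part (11 to 20.4). The upper bound left the distal part and its 37 wide regions out of the segment, and the whole list contains both. The difference in these shares was not tested.

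The widest region, chr11:53608265-53611017, measured 2753 bp and had a signal of 0.0258, below the list median. The next were chr11:83991674-83993191 (1518 bp, signal 0.0238) and chr11:72764785-72766286 (1502 bp, signal 0.0422). Close behind were chr11:72304588-72306081 (1494 bp, signal 0.0363) and chr11:5196637-5198101 (1465 bp, signal 0.0335). None of these 5 belonged to a run, and none was among the 10 with the highest signal.

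**Figure D3:**
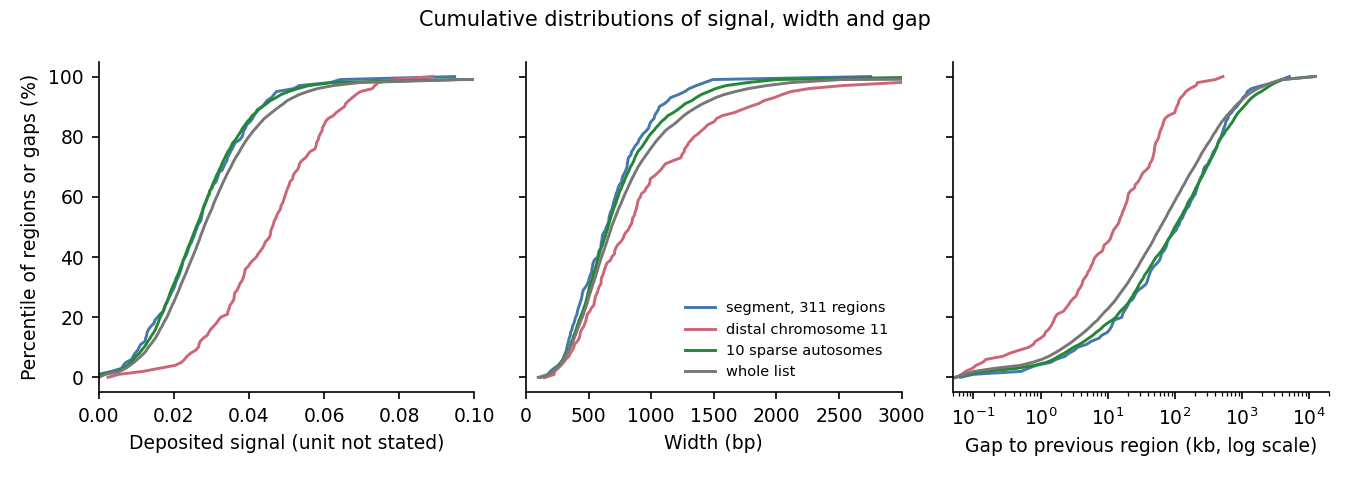
Cumulative distributions of deposited signal (left, unit not stated), width in bp (middle) and gap to the previous region in kb on a log scale (right), with the percentile of regions or gaps on the y axis, for the segment, distal chromosome 11, the 10 sparse autosomes and the whole list. Axes of signal and width end before the highest values. The curves of the segment run close to those of the sparse autosomes, while the distal part has higher signals (median 0.0462 against 0.0262) and shorter gaps (median 13.3 against 109.7 kb).

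Wider regions of the segment had somewhat higher signals. Spearman's rho of width and signal was 0.160 across the 311 regions, given as a description since the regions share 1 library pool. Among the 78 regions from 300 up to 500 bp the signal had its median at 0.0224 (quartiles 0.0141 and 0.0322). Among the 42 from 1000 up to 1500 bp it was at 0.0296 (0.0215 and 0.0350). The 166 regions of the class between had 0.0265. In each of these classes the distal part lay higher, at 0.0427, 0.0475 and 0.0459. Among the regions above the list median alone, a subset picked by signal itself, rho was -0.129, which therefore says little about the relation in the full set.

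**Figure D4:**
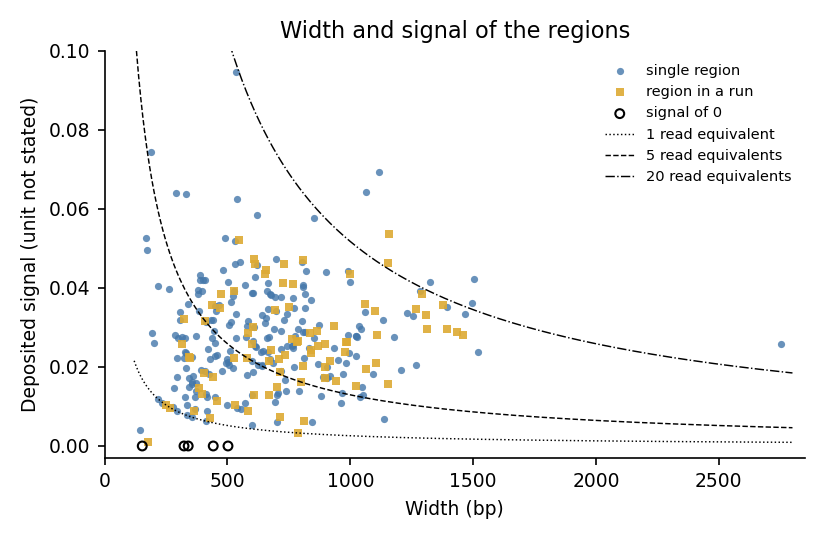
Deposited signal (y axis, unit not stated) against width in bp (x axis) for the 311 SOX10 regions of the segment, with single regions as circles, regions in runs as squares and the 5 regions at a signal of 0 as open circles. Curves mark the signal that 1, 5 and 20 read equivalents give at each width. Most points lie between the curves of 1 and 20, and 8 regions have 20 or more.

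At the lower bound the list changes within a short distance. The first regions of the segment, chr11:3266463-3266786, chr11:3802571-3803562 and chr11:3863645-3864039, had signals of 0.0222, 0.0442 and 0.0391. Just outside it lay chr11:3192382-3192936 with 0.0240, and before that chr11:3044330-3045536 and chr11:3031410-3031676 with 0.533 and 0.735. The nearest region outside thus had a signal like those inside, and the strong ones stood further off. At the upper bound the last regions inside had signals of 0.0273 (chr11:109692736-109693586), 0.0305 (chr11:110700478-110700985) and 0.0206 (chr11:110820099-110820738). The first outside had 0.0460 (chr11:111905619-111906180), 0.0323 (chr11:111956472-111957351) and 0.0191 (chr11:112482619-112483160). Signals on either side of the upper bound overlapped among these regions. No region of the segment was joined to one outside it by a gap under 10 kb.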

How the data were processed

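The authors deposited a single region list from their 2 tumor SOX10 ChIP samples and the control, with a signal per region. Its formula was not given in the sources used here. The same holds for calling threshold and duplicate handling. Library depth is unknown. The submitters' processing notes name MACS2 2.1.1, SAMtools 1.3.1, Bowtie 0.12.8, FastQC and build mm9, with no parameters. The other groups of the 14 samples were not analysed here. Regions were selected by position, counted in 5 Mb windows by midpoint, and joined into runs where gaps were under 10 kb (Python 3.11.15, pandas 2.3.3, scipy 1.17.1). Intervals are exact Poisson, Clopper-Pearson or order-statistic intervals at 95%, cover counting error only and treat regions as independent. No test was run. The segment, the comparison sets and the alternatives were chosen with earlier results of these data known. Named regions are the 10 strongest, the 5 widest, runs of 4 or more and the 3 on each side of each bound. Runs of 3, the closest pair and the regions at 0 were added after their values were seen. The functions were tested on simulated data. Coordinates are 1-based. Genes, sequence and motifs, which need an mm9 genome, were not analysed here.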

Additional observations from a re-analysis of the deposited data

How the results depend on the processing

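No paired analysis was possible because both ChIP samples are merged in 1 list without sample columns, and no sample could be left out. Of 21 alternatives, 13 stayed within the interval of the value as reported (within 1.5 times for the highest window count) and 8 did not. With only the 50% of the list with the highest signal, the segment held 1.23 regions per Mb, a highest window count of 15, 12.8% of regions in runs and a rho of width and signal of -0.129. Fewer regions enter by construction, and for rho the cause was not tested. By construction too, counting runs once gave 2.45 per Mb. The share in runs moved with the limit, to 9.0%, 20.3% and 40.2% with gap limits of 1, 5 and 20 kb. Bounding the segment at 110 Mb gave 2.89 per Mb. Median width ranged from 602 to 661 bp and median signal from 0.0262 to 0.0272 over their alternatives. The planned description of genes and motifs was not run. On the reading of the signal used here, few read equivalents per region limit the ranking of single regions.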

Other observations

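Chromosome 11 as a whole, with its distal part, held 34.9 SOX10 regions per 100 protein-coding genes of the GRCm38.p6 table, rank 10 of 20 chromosomes. Chromosome 7, which had the most protein-coding genes (2030), held 16.2 per 100 genes, and chromosome 18, with the fewest (510), held 77.1. The values did not simply fall with gene number, which is also their divisor. Chromosome X held 7.66, the lowest value, with 966 genes, and chromosome 4 held 62.9 with 1328. Gene counts came from another build than the list and were compared by chromosome only.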
